A study of Mus musculus with 3 samples.

Results

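The Mzb1-high cells of the sorted testis preparation were the cells whose ln value of Mzb1, the natural log of 1 plus the UMIs (unique molecular identifiers, counted RNA molecules) per 10000 UMIs of the cell, was at least 2.0, which is 6.39 UMIs per 10000. They numbered 161 of the 5023 cells in the data, and they were chosen by their Mzb1 values alone. The study injected adeno-associated virus serotype 9 carrying a short hairpin RNA and a red fluorescent protein (RFP) into testes of mice of the outbred ICR background at postnatal day 21. Gm4665, a mouse long noncoding RNA, was targeted by the hairpins shRNA1 and shRNA2, and the opposite testis received the control hairpin shCtrl. Somatic cells were then removed, RFP-positive cells were sorted as germ cells, and each condition gave 1 droplet library of 3' RNA ends from 3 mice per condition, with no map from cells to mice. Every group is therefore 1 library of pooled mice, no test across libraries was possible, and all intervals cover counting error only. All cells of all 3 groups share the virus, the RFP and the sort, and the sort was meant for germ cells, so leukocytes were not its aim.

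Mzb1 encodes a chaperone of the endoplasmic reticulum (ER) that B cells and plasma cells use when they assemble antibodies. Jchain encodes the joining chain that links IgM and IgA into polymers, and Cd79a encodes a signalling subunit of the B cell receptor. When a B cell becomes an antibody-secreting plasma cell, it enlarges its ER under the transcription factor Xbp1 and silences the B cell program held by Pax5 and Ebf1. The normal seminiferous epithelium is shielded from the immune system, and the leukocytes of a testis lie mostly in the interstitium around it.

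The label of antibody-lineage cells was checked against Jchain and Cd79a, which had no part in the choice. At least 1 UMI of Jchain was found in 144 of 161 Mzb1-high cells and of Cd79a in 153, both were found in 138, and 159 had either. The pair without either came from shRNA2 and had 3 and 1 UMIs of Cd79b, the partner of Cd79a in the receptor, and 5 and 1 UMIs of Ms4a1, the B cell surface protein CD20. Jchain RNA was also spread over the other cells: 21.6%, 69.8% and 3.89% of all other cells of shRNA1, shRNA2 and shCtrl had a Jchain UMI, at a median depth of 14880, 16927 and 19377.5 UMIs. For Cd79a the same shares were 1.301%, 6.09% and 1.20%. A single Jchain UMI therefore does not set a cell apart in shRNA2, and the levels below, rather than detection, carry the check. Where those UMIs in other cells came from was not tested. The constant genes of immunoglobulin heavy and light chains, which define the antibody class of a cell, are not analysed here.

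Marker lists of other leukocytes were not absent from the Mzb1-high cells. The list of plasmacytoid dendritic cells, which can also make Jchain and Mzb1, summed to 425, 527 and 753 CPM (counts per 1000000 UMIs) in Mzb1-high cells of shRNA1, shRNA2 and shCtrl, against 59.5, 79.7 and 62.1 CPM in all other cells and 628, 531 and 598 CPM in other leukocytes. Most of that sum came from Irf8, Tcf4 and Bst2, which B cells also express, while 3 of its 13 genes, among them the defining gene Siglech, had 0 UMIs in all 161 cells. The macrophage list summed to 349, 179 and 255 CPM in Mzb1-high cells, against 134, 37.9 and 34.7 CPM in all other cells, and Ctss, a lysosomal protease of antigen-presenting cells, B cells among them, gave 259, 136 and 202 CPM of it. The conventional dendritic cell list summed to 66.2, 77.3 and 255 CPM, against 23.8, 21.7 and 21.2 CPM, led by Ccr7. In other leukocytes, described below, the macrophage list summed to 1379, 429 and 640 CPM and the conventional dendritic cell list to 619, 372 and 1062 CPM. The part of such cells in the results was not tested. Of the neutrophil and mast cell markers, 4 of 4 measured genes were at 0. Lyz2, the lysozyme of macrophages and neutrophils, was found in 1, 2 and 0 cells of shRNA1, shRNA2 and shCtrl, and Cd3e, a T cell receptor subunit, in 1, 5 and 0 cells. The Sertoli cell list summed to 11.7, 9.24 and 0 CPM in the Mzb1-high cells, against 30.1, 48.4 and 80.4 in all other cells. The B cell list (16 genes) summed to 1301, 1167 and 1220 CPM in the Mzb1-high cells of shRNA1, shRNA2 and shCtrl, against 22.2, 37.7 and 21.4 in all other cells. In other leukocytes the B cell list summed to 705, 929 and 1233 CPM, in shCtrl about the level of the Mzb1-high cells. Of 6 B cell genes compared with other leukocytes, 1 was higher by 2-fold or more in both hairpin libraries and 0 lower. Over all genes, 4.09% were higher and 3.18% lower. The label fits the B cell markers against all other cells, but this list separates the Mzb1-high cells little from other leukocytes.

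The Mzb1-high cells held 513392 UMIs in shRNA1, 2055653 in shRNA2 and 94260 in shCtrl, of library totals of 38330044, 44640351 and 40405313. Their median depth was 9315, 13457.5 and 16096 UMIs, against 14880, 16927 and 19377.5 in all other cells. RNA of ribosomal protein genes made up 22.96%, 29.3% and 34.6% of their UMIs, against 6.08%, 7.15% and 4.80% in all other cells. Spermatid RNA was found in the Mzb1-high cells of every library: the protamine and transition protein genes Prm1, Prm2, Tnp1 and Tnp2 gave 3.49%, 1.45% and 1.5001% of the UMIs of Mzb1-high cells, against 9.31%, 8.73% and 12.1% of all other cells. In single Mzb1-high cells that share ran between 0.784% and 19.98%, and its source was not tested. A barcode was shared by 2 libraries in 18 cases, and 1 Mzb1-high cell was among them.

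The Mzb1-high cells were unevenly spread over the libraries. They made up 41 of 1732 cells of shRNA1, which is 2.37% (95% exact binomial interval 1.70 to 3.20), and 116 of 1873 cells of shRNA2, which is 6.19% (5.14 to 7.38), against 4 of 1418 cells of shCtrl, which is 0.282% (0.0769 to 0.721). The intervals of the 3 libraries do not overlap. Other leukocytes, taken as cells with an ln value of Cd52 or Cd74 of at least 2.0 that were neither Mzb1-high nor Lyz2-high, made up 2.08%, 3.52% and 0.917% of shRNA1, shRNA2 and shCtrl. Cells with an ln value of Lyz2 of at least 3.0 made up 1.04%, 0.107% and 0.141%. Both hairpin libraries thus held larger shares of Mzb1-high and of other leukocytes than the control library. Hairpin, mouse, dissection, sort and library cannot be told apart here, because each condition is 1 library.

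The threshold lay within a run of values. The 5 cells just inside it had ln values of 2.01, 2.02, 2.04, 2.05 and 2.08, from 7, 7, 11, 6 and 6 Mzb1 UMIs, and the 5 just outside had 1.94, 1.97, 1.98, 1.99 and 1.996, from 9, 33, 26, 5 and 8 UMIs. All 10 had Cd79a UMIs. Between 1.5 and 2.0 lay 30 cells, of which 29 had a Cd79a UMI and 0 had a Jchain value as high as the plasma cell-like cells described below. The threshold therefore cut through cells with B cell RNA and left out few with high Jchain.

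Jchain (chr5:88519809-88527891, minus strand, mm10) was the most abundant of the 3 lineage markers in the hairpin libraries, and Mzb1 in shCtrl. Its summed level was 38033 CPM (95% exact Poisson interval 37502 to 38571) in the Mzb1-high cells of shRNA1, 18713 (18527 to 18901) in those of shRNA2 and 1878 (1611 to 2176) in those of shCtrl. In all other cells it was 11.4, 66.2 and 1.39 CPM. The level per cell ran between 0 and 209320 CPM in shRNA1 with a median of 38650, and between 0 and 274682 in shRNA2 with a median of 6543. The 4 control cells had 0, 0, 2 and 175 Jchain UMIs, so the control level rests on 1 cell.

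Cd79a (chr7:24897381-24902197, plus strand) varied less between libraries. Its summed level was 588 CPM (524 to 658) in Mzb1-high cells of shRNA1, 389 CPM (363 to 417) in those of shRNA2 and 573 CPM (430 to 747) in those of shCtrl, against 2.06, 6.58 and 2.70 CPM in all other cells. Mzb1, which chose the cells, stood at 5244, 3175 and 2525 CPM. The 4 control cells had 4, 19, 4 and 27 Cd79a UMIs and 225, 163, 219 and 343 UMIs of Cd74, the invariant chain of MHC class II. All 4 thus carried B cell RNA, and 1 of them carried high Jchain RNA.

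**Figure D1:**
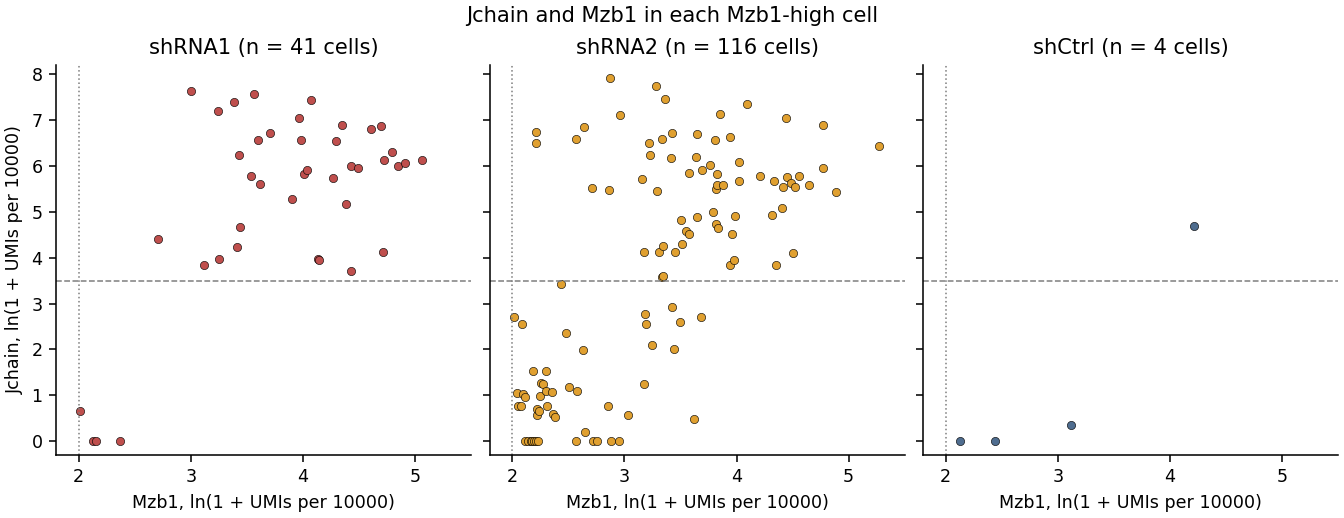
Jchain against Mzb1 in each Mzb1-high cell of shRNA1, shRNA2 and shCtrl, both as ln(1 + UMIs per 10000). The dotted line is the Mzb1 threshold of 2.0 and the dashed line a Jchain value of 3.5. In shRNA2 the cells lie in a low and a high Jchain range with no empty gap, in shRNA1 37 of 41 lie in the high range, and in shCtrl 1 of 4.

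Much of the lineage RNA of each library lay in these few cells. They held 1.34%, 4.60% and 0.233% of all UMIs of shRNA1, shRNA2 and shCtrl, but 97.8%, 93.2% and 76.0% of the Jchain UMIs. Of Tnfrsf17, the survival receptor BCMA of plasma cells, they held 96.2% and 88.6% in shRNA1 and shRNA2, and shCtrl had 0 UMIs. Txndc5, a disulfide isomerase of the ER, lay 84.2%, 88.4% and 17.0% in them, and Xbp1 76.4%, 74.0% and 7.81%. Without the Mzb1-high cells the Jchain level of a whole library would be 11.4, 66.2 and 1.39 CPM, against 521, 925 and 5.77 CPM with them. In shCtrl, where only 4 cells were Mzb1-high, most Xbp1 and Txndc5 UMIs lay in other cells.

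RNAs shared with other leukocytes were divided more evenly. The Mzb1-high cells held 51.0%, 64.0% and 38.3% of the Cd52 UMIs and 29.5%, 56.9% and 18.03% of the Cd74 UMIs. For B2m, the light chain of MHC class I, the shares were 58.4%, 60.2% and 24.5%. Of Gm4665 they held 0.297%, 0.623% and 0.0398%, less than their share of all UMIs in each library.

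**Figure D2:**
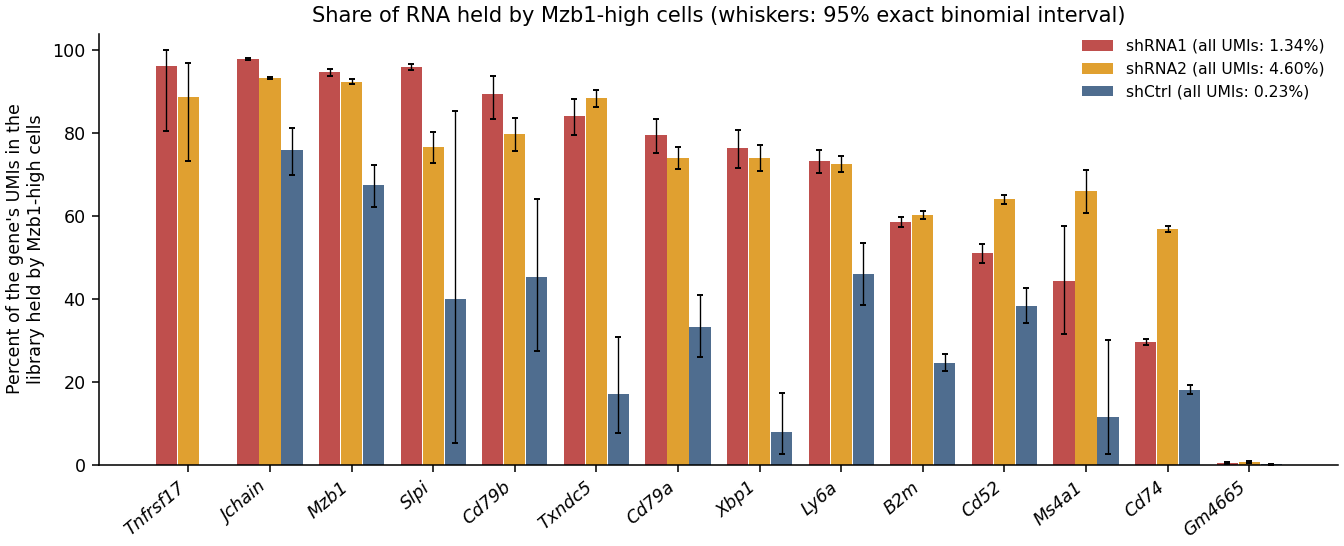
Percent of the UMIs of each gene that lay in Mzb1-high cells, by library (bars in the order shRNA1, shRNA2, shCtrl; whiskers are 95% exact binomial intervals, which cover counting error only). Jchain and Tnfrsf17 lay mostly in these cells, Cd74 was shared with other leukocytes, and Gm4665 lay almost wholly elsewhere. Mzb1 chose the cells, so its share is set by that choice and is shown for reference. No UMI of Tnfrsf17 was found in shCtrl.

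Against all other cells of their library, which were mostly germ cells, the Mzb1-high cells differed widely, and since the choice of cells made this contrast it is only described. Of 6449 genes compared, 1231 (19.1%) were higher by 2-fold or more in all 3 libraries and 2263 (35.1%) lower by as much, where a fold is taken on CPM plus 1. The median log2 fold over all genes compared was -0.69 in shRNA1, -0.72 in shRNA2 and -0.68 in shCtrl. Lymphocyte genes led the higher side. Cd69, an early activation receptor, stood at 308, 435 and 117 CPM in Mzb1-high cells, against 1.24, 4.37 and 0.695 CPM in the others. Ly6a, the surface protein Sca-1, stood at 1451, 738 and 902 CPM, against 7.22, 13.4 and 2.48 CPM. Edem1, which passes misfolded glycoproteins to degradation, stood at 838, 569 and 265 CPM, against 5.63, 7.96 and 4.27 CPM. Meiotic genes led the lower side: Sycp1, a component of the synaptonemal complex, stood at 17.5, 12.6 and 10.6 CPM, against 114, 209 and 120 CPM.

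The lists followed the same lines. All 4 compared B cell genes, 7 of 8 genes of antibody-secreting cells, 7 of 7 MHC class II genes and 12 of 13 MHC class I genes were higher in all 3 libraries, with list medians (log2) between 3.86 and 6.27. The first 2 lists held 16 and 17 measured genes, and the rest missed the filter. A gene scarce in other cells passes it only through the Mzb1-high cells, and the second list holds Mzb1. These counts are thus partly set by the filter and the choice of cells. Of the ER lists, 16 of 20 genes for folding and disulfide bonds and 11 of 20 for translocation into the ER were higher. Of the germ cell lists, 8 of 8 spermatocyte, 6 of 6 round spermatid and 8 of 9 late spermatid genes were lower. With TMM scaling, which moves the median of shCtrl to -1.72, the ER counts were 10 of 20 and 7 of 20.

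The Jchain values fell mostly into a low and a high range. At an ln value of Jchain of 3.5, 32.1 UMIs per 10000, they split into 105 Jchain-high and 56 Jchain-low cells. Of the 161 cells, 2 lay between 2.0 and 2.5, 7 between 2.5 and 3.0 and 1 between 3.0 and 3.5, so no empty gap parted the ranges. The split was chosen after the Jchain values were seen, and it marks ranges, not proven cell types. Jchain-high cells were 37 of 41 Mzb1-high cells in shRNA1 (90.2%, 76.9 to 97.3), 67 of 116 in shRNA2 (57.8%, 48.2 to 66.9) and 1 of 4 in shCtrl (25%, 0.631 to 80.6). The 2 hairpin libraries therefore held different mixtures, with intervals that do not overlap. Among all 5023 cells, 1 cell with 203 Jchain UMIs, in shRNA2, passed the Jchain value without passing the Mzb1 threshold.

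Only shRNA2 held enough cells of both ranges to compare sums, 67 Jchain-high cells with 1120771 UMIs and 49 Jchain-low cells with 934882 UMIs. Their median depths were alike, 13329 and 13512 UMIs. Of 6281 genes compared, 479 (7.63%) were higher by 2-fold or more in Jchain-high cells and 315 (5.02%) lower by as much, with a median log2 fold of 0.18. TMM scaling moved that median to 0.00 and the counts to 323 higher and 435 lower, so the balance of directions depends on the scaling. The 4 Jchain-low cells of shRNA1 are given beside as a second look at small depth.

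Of 16 genes of antibody-secreting cells compared, 13 were higher in Jchain-high cells of shRNA2 and 0 lower, with a median log2 fold of 2.41, against 0.18 over all genes. The list holds Jchain, which defined the split, and Mzb1, which chose the cells. Xbp1 stood at 421 CPM in Jchain-high and 74.9 CPM in Jchain-low cells of shRNA2, and at 593 and 17.6 CPM in shRNA1. Over cells of shRNA2 the median was 4.17 UMIs of Xbp1 per 10000 in Jchain-high and 0.394 in Jchain-low cells. Mzb1 stood at 4733 and 1307 CPM. Sdc1, the plasma cell surface proteoglycan CD138, stood at 54.4 and 3.21 CPM, and was found in 35 of 67 and 3 of 49 cells. Tnfrsf17 had 31 UMIs in 11 Jchain-high cells and 0 UMIs in Jchain-low cells.

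Further genes led the higher side. Trp53inp1, a stress gene induced by p53, stood at 396 CPM in Jchain-high and 19.3 CPM in Jchain-low cells of shRNA2, and was found in 61 and 9 cells. Eaf2, a partner of the elongation factor ELL, stood at 89.2 and 6.42 CPM. Fkbp11, a prolyl isomerase of the ER, stood at 112 and 9.63 CPM, and Txndc5 at 663 and 72.7 CPM. Pon3, a lactonase, stood at 124 and 8.56 CPM and was, like Trp53inp1 and Eaf2, also higher in the Jchain-high cells of shRNA1, with 219 against 17.6 CPM. Of the 15 leading genes, all were on the higher side in both hairpin libraries, although shRNA1 gives only 4 Jchain-low cells. Jchain, which defined the split, is among them. Trp53inp1, Selm, Nts, Eaf2, Fkbp11, Hist1h2bc and Sel1l had 0 UMIs in those 4 cells, so any UMI in Jchain-high cells put them on the higher side. For Nts that was 1 UMI. The shared direction therefore carries little weight.

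The lists of the secretory machinery were higher in sum in Jchain-high cells of both hairpin libraries. Translocation into the ER summed to 11474 and 10557 CPM in Jchain-high cells of shRNA1 and shRNA2, against 3032 and 4595 in Jchain-low cells. In other leukocytes it summed to 2811, 3282 and 3014 in shRNA1, shRNA2 and shCtrl. In shRNA2, 14 of 21 genes were higher and 0 lower, with a median log2 fold of 1.18. Ssr4, a subunit of the translocon-associated complex, stood at 1555 CPM in Jchain-high and 391 CPM in Jchain-low cells, and Sec11c, the catalytic subunit of signal peptidase, at 1214 and 355 CPM. Srp14, part of the signal recognition particle, was close in both, at 342 and 318 CPM.

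Folding and disulfide genes summed to 12558 and 11063 CPM in Jchain-high cells of shRNA1 and shRNA2, against 1869 and 4263 in Jchain-low cells, and 16 of 21 were higher and 0 lower in shRNA2. Hspa5, the ER chaperone BiP, stood at 947 CPM in Jchain-high and 334 CPM in Jchain-low cells, and Hsp90b1, the ER form of HSP90, at 1821 and 611 CPM. Pdia4, a disulfide isomerase, stood at 396 and 75.9 CPM. The lectin chaperones Calr and Canx missed the 2-fold line, with 1052 against 660 CPM and 112 against 130.5 CPM. For degradation of misfolded proteins, 11 of 12 genes were higher, among them Sel1l at 116 against 19.3 CPM and Derl3 at 236 against 59.9 CPM. N-glycosylation gave 6 of 12, transport between ER and Golgi 10 of 18 and regulators of the unfolded protein response 6 of 10, with 0 lower in each. With TMM scaling the counts of translocation, folding, degradation, glycosylation and transport were 11, 14, 9, 4 and 8.

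The ER stress response element, CCAAT and CCACG with 9 bases of any kind between them, is bound by ATF6 with NF-Y in promoters of ER chaperone genes, and it was searched for on both strands in promoter windows of 300 bases from RefSeq (GRCm38.p6), 250 before and 50 after the start. It was present in 39 of 32851 windows (0.119%). Of 112 genes on the ER and secretory lists, 87 had a window, and 9 of them held the element: Calr, Canx, Creld2, Derl3, Dnajc3, Hsp90b1, Hspa5, Pdia6 and Syvn1. In shRNA2, 7 of these 9 were at least 2-fold higher in Jchain-high cells, and Calr and Canx were not. Among the other list genes with a window, 49 of 74 compared (66.2%) were higher, a share near that of the genes with the element (77.8%). The shorter motifs TGACGTGG and ACGTGG, of which the second lies within the first, stood in 3 and 26 of the 87 genes, against 0.676% and 8.31% of all windows. For the element and both motifs a gene counted if any of its windows matched. The 87 genes had 101 windows, while the shares of all windows count single windows, so the units differ. A match describes letters in a window, and the Jchain window held none. The 250 bases before the start are shown, read 5' to 3' on the strand of the gene, with the element in capitals, for 4 genes that carry it and differ between the ranges and, for contrast, for Jchain.
Hspa5 (chr2:34771840-34772089, plus strand): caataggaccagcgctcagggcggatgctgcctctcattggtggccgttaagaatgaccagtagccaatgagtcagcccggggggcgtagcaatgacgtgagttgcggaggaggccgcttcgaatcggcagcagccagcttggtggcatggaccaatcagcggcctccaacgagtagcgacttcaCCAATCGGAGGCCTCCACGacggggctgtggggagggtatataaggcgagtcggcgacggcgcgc
Hsp90b1 (chr10:86705445-86705694, minus strand): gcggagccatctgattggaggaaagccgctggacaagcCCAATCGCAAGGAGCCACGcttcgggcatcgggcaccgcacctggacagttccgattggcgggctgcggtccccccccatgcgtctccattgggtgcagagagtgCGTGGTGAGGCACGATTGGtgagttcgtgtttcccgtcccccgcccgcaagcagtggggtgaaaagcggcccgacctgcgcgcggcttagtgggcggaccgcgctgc
Derl3 (chr10:75893148-75893397, plus strand): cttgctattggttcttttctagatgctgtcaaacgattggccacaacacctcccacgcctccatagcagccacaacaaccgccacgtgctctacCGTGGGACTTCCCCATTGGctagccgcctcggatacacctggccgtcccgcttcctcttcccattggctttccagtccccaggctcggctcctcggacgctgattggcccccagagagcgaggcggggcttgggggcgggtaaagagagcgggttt
Creld2 (chr15:88819396-88819645, plus strand): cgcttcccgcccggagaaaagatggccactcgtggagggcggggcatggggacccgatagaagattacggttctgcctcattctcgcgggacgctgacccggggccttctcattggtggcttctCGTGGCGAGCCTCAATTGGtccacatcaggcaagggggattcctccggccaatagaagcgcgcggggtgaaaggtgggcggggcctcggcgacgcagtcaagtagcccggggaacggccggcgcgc
Jchain (chr5:88527898-88528147, minus strand): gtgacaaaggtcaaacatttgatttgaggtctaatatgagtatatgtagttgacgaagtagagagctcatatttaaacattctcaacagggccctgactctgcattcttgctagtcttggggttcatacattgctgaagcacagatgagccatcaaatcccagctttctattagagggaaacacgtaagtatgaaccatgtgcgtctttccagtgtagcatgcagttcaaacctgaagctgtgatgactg

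In Hsp90b1 the element appears once on each strand, and in Derl3 and Creld2 it lies on the opposite strand, so the capitals there read as its reverse complement. Creld2, an ER protein that ER stress induces, stood at 610 CPM in Jchain-high and 208 CPM in Jchain-low cells of shRNA2, and Pdia6 at 692 and 237.5 CPM. Whether the element acts in these cells was not tested.

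B cell genes ran the other way. Of 10 compared, 5 were lower in Jchain-high cells of shRNA2 and 0 higher, with a median log2 fold of -1.10. Over all genes compared, 5.02% were lower and the median was 0.18. The list held 16 measured genes, and the rest missed the filter. A gene scarce in Jchain-high cells passes it only through the Jchain-low cells, so this count and median are partly set by it. Ms4a1 stood at 44.6 CPM in Jchain-high and 186 CPM in Jchain-low cells, and was found in 27 of 67 and 43 of 49 cells. Ebf1 stood at 84.8 and 275 CPM, and at 43.8 and 582 CPM in shRNA1. Pax5 had 2 UMIs in 2 Jchain-high cells and 27 UMIs in 20 Jchain-low cells. The receptor subunits Cd79a and Cd79b did not follow, at 448 against 319 CPM and 172 against 141 CPM. Thus the coreceptor and transcription factor genes were lower while the antigen receptor's signalling subunits were at similar levels.

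Other genes of mature B cells shared that direction. Ccr7, a receptor for lymph node homing, stood at 17.8 CPM in Jchain-high and 109 CPM in Jchain-low cells of shRNA2, and Ltb, lymphotoxin beta, at 17.8 and 105 CPM. Hvcn1, a voltage-gated proton channel, stood at 12.5 and 95.2 CPM. Among genes with at least 100 UMIs over both ranges, Plac8 had the steepest split on the lower side, 289 against 2205 CPM, with a median over cells of 1.10 and 24.3 UMIs per 10000. In shRNA1 it stood at 92.0 and 2521 CPM. The directions in shRNA1 differed for 3 of the 15 named lower genes, Ago2, Ptpn6 and Pld4. Bcl2a1b has near-identical copies, so its counts are uncertain.

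MHC class II RNA was lower in sum in Jchain-high than in Jchain-low cells of both hairpin libraries, but not in shCtrl, where 1 Jchain-high cell had 37328 CPM and the 3 Jchain-low cells 15816 CPM. The list summed to 9926 and 8680 CPM in Jchain-high cells of shRNA1 and shRNA2, against 18898 and 14007 in Jchain-low cells. In other leukocytes it summed to 17542, 17728 and 32075 in shRNA1, shRNA2 and shCtrl. Cd74, a gene of the list, gave 9651, 8197 and 15481 CPM of these sums. Since Cd74 also helped to choose the other leukocytes, their level is partly set by that choice. In shRNA2, 4 of 8 genes were lower and 0 higher. H2-Oa, which limits peptide loading in B cells, had 0.892 CPM in Jchain-high and 33.2 CPM in Jchain-low cells, while Cd74 stood at 4874 and 7108 CPM. Ciita, the master activator of class II genes, had 4 UMIs in 3 Jchain-high cells and 25 UMIs in 18 Jchain-low cells.

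**Figure D3:**
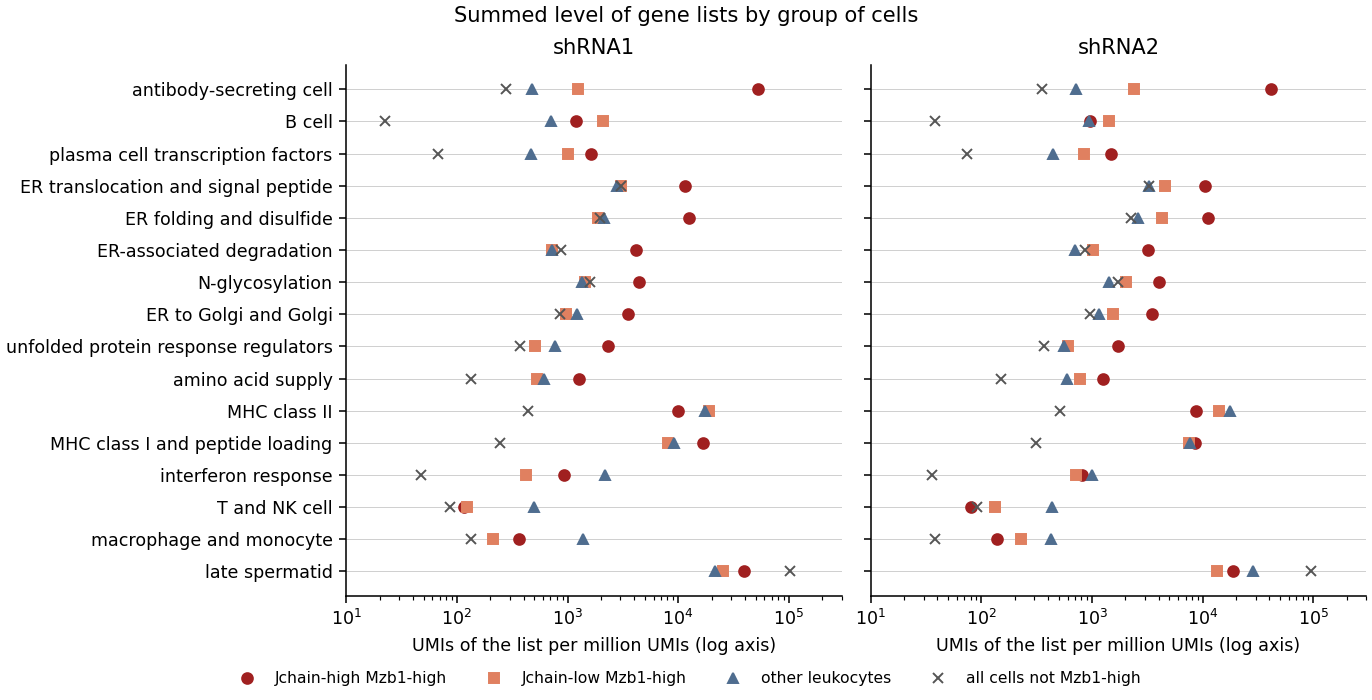
Summed level of 16 gene lists, in CPM summed over the list (log axis), for Jchain-high and Jchain-low Mzb1-high cells, other leukocytes and all cells that are not Mzb1-high, in shRNA1 (left) and shRNA2 (right). The ER lists are highest in Jchain-high cells, at 11474 and 10557 CPM for translocation, where the Jchain-low cells are closer to other leukocytes. The MHC class II list is lower in Jchain-high than in Jchain-low cells in both libraries. It holds Cd74, which helped to choose the other leukocytes, so their level of this list is partly set by that choice.

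Transcription factors and surface receptors divided within their lists. Of 10 plasma cell transcription factors compared in shRNA2, 3 were higher in Jchain-high cells: Xbp1, Pou2af1, the B cell coactivator OBF-1, at 270 against 119 CPM, and Ell2, an elongation factor used for secreted antibody transcripts, at 91.9 against 37.4 CPM. Prdm1, the repressor Blimp-1, had 24.1 against 13.9 CPM from 27 and 13 UMIs. Irf4 stood at 35.7 against 62.0 CPM. Of 23 surface genes, 7 were higher and 2 lower. Ccr10, the mucosal homing receptor of IgA-secreting cells, had 59 UMIs in 23 Jchain-high cells and 2 UMIs in 2 Jchain-low cells. Cd28, a costimulatory receptor that plasma cells also carry, stood at 60.7 and 21.4 CPM, and Ptprc, the leukocyte common antigen, at 33.0 and 80.2 CPM. Cxcr4, a receptor for bone marrow homing, stood at 39.3 and 59.9 CPM, within 2-fold.

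Among the cells of shRNA2, Jchain followed Xbp1 with a Spearman rho of 0.76 over 116 Mzb1-high cells and Ms4a1 with a rho of -0.58, and in shRNA1 over 41 cells the values were 0.60 and -0.35. Jchain and Mzb1 had a rho of 0.61 over the 116 cells of shRNA2, but -0.13 over the 67 Jchain-high cells alone. These are descriptions over cells that share a library and differ in depth. The level of Jchain was also lower in deeper cells, with a rho against UMIs per cell of -0.65 over the 67 and -0.61 over the 37 Jchain-high cells of shRNA2 and shRNA1.

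The deeper Jchain-high cells carried more proliferation RNA. In shRNA2, the cell cycle list, which holds genes of DNA synthesis and mitosis, summed to 1951 CPM in the 18 Jchain-high cells of at least 20000 UMIs and to 1054 in the 49 others. Mki67, the proliferation antigen, was found in 17 of the 18 and 11 of the 49, and Top2a, the topoisomerase of dividing cells, in 18 and 20. In shRNA1 the list summed to 1634 in the 6 deep cells and 454 in the 31 others. Jchain ran the opposite way, at 14044 against 52471 CPM in shRNA2 and 6772 against 63762 CPM in shRNA1. Detection of a gene grows with depth, whereas a summed level does not. Among Jchain-low cells of shRNA2 the list summed to 1602 in the 15 deep cells and 599 in the 34 others, so the relation to depth was shared by both ranges. Germ cells in meiosis also make cell cycle RNA, and the part of free RNA in these sums was not tested.

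**Figure D4:**
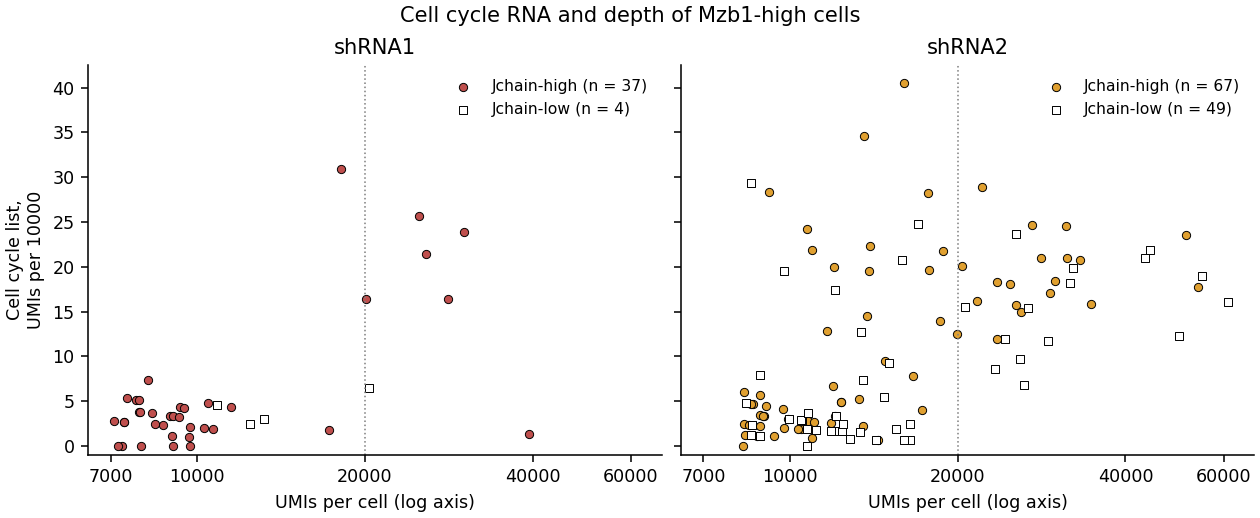
Cell cycle list (UMIs per 10000) against UMIs per cell (log axis) in Jchain-high (filled) and Jchain-low (open) Mzb1-high cells of shRNA1 and shRNA2. The dotted line marks 20000 UMIs. Beyond it, 5 of 6 Jchain-high cells of shRNA1 and 18 of 18 of shRNA2 have more than 10 UMIs of the list per 10000, and below it 1 of 31 and 15 of 49 do.

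Mzb1-high cells were also set against other leukocytes. Of 4062 genes compared, 166 (4.09%) were higher by 2-fold or more in both hairpin libraries and 129 (3.18%) lower by as much, with a median log2 fold of 0.07 in shRNA1 and 0.01 in shRNA2. Genes of antibody-secreting cells were higher in 12 of 14, folding genes in 15 of 20, translocation genes in 13 of 20 and degradation genes in 10 of 12, with 0 lower. The first of these lists holds Mzb1, which fixed who belongs to either group, so its count is partly set by the choice of cells. Lman1, the cargo receptor for glycoproteins leaving the ER, stood at 310 CPM in Mzb1-high cells and 17.6 CPM in other leukocytes of shRNA1, and at 207 and 17.2 CPM in shRNA2. Pou2af1 stood at 173 and 19.8 CPM in shRNA1, and at 201 and 26.3 CPM in shRNA2.

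Genes of T cells and myeloid cells were lower. All 4 compared T and NK cell genes, 4 of 6 macrophage genes and 2 of 2 genes of conventional dendritic cells were lower in both hairpin libraries. The lists held 11, 12 and 7 measured genes, and the rest missed the filter on the mean of both groups. A gene scarce in Mzb1-high cells passes that filter only through the other leukocytes, so these counts are partly set by it. Tyrobp, a signalling adaptor of myeloid and NK cells, stood at 1.95 CPM in Mzb1-high cells and 370 CPM in other leukocytes of shRNA1, and at 35.03 and 271 CPM in shRNA2. Ccl5, a chemokine of T and NK cells, stood at 91.5 and 705 CPM in shRNA1, and at 11.2 and 288 CPM in shRNA2. S100a4, a calcium-binding protein of motile cells, had 0 UMIs in Mzb1-high cells of shRNA1, against 308 CPM in other leukocytes, and 27.2 and 344 CPM in shRNA2. Of the interferon response list, 4 of 8 genes were lower, led by Ifitm3 with 13.6 and 478 CPM in shRNA1 and 4.38 and 249 CPM in shRNA2. Ifitm genes have close copies, so their separate counts are uncertain. The other leukocytes still had 704.9, 929 and 1233 CPM of the B cell list in shRNA1, shRNA2 and shCtrl, so they include cells with B cell RNA.

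Gm4665 (chr9:115180404-115186058, minus strand, antisense within Osbpl10) was little present in the Mzb1-high cells. They had 6 UMIs in 4 cells of shRNA1 (11.7 CPM, 4.29 to 25.4), 22 UMIs in 20 cells of shRNA2 (10.7 CPM, 6.71 to 16.2) and 5 UMIs in 3 cells of shCtrl (53.0 CPM, 17.2 to 124). In all other cells the levels were 53.3, 82.4 and 312 CPM, and in other leukocytes 15.4, 13.1 and 46.4 CPM. Prm1, a spermatid gene, also stood at 15618, 6473 and 6344 CPM in Mzb1-high cells, against 41025, 39294 and 51169 CPM in all other cells. Gm4665 per Prm1 UMI was 0.000748, 0.00165 and 0.00836 in Mzb1-high cells, against 0.00130, 0.00210 and 0.00609 in all other cells. Whether these cells make any Gm4665 was not tested. Since no source names the strand that was counted, its reads cannot be told apart from those of Osbpl10.

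Against the 4 control cells, the Mzb1-high cells of both hairpins differed at many genes, and the control sum limits what this shows. Of 6823 genes, 1391 (20.4%) were higher by 2-fold or more in both and 430 (6.30%) lower by as much, and both folds share the same 4 control cells. The median log2 fold was 0.20 for shRNA1 and 0.22 for shRNA2, and 0.42 and 0.37 with TMM scaling, where 1624 were higher and 311 lower. The deepest control cell held 51.7% of the control UMIs, and without it the counts were 2062 and 538. In Jchain-low cells alone, 573 were higher and 189 lower of 4014 genes. Antibody-secreting genes were higher in 9 of 16, round spermatid genes in 6 of 6 and immediate-early and heat shock genes in 12 of 15. The round spermatid list had 166 and 609 UMIs in Mzb1-high cells of shRNA1 and shRNA2, but only 7 in shCtrl. A gene scarce in the control cells passes the filter only through the hairpin cells, so these counts are partly set by it. Of the Mzb1-high cells, 37 of 41 and 67 of 116 hairpin cells but 1 of 4 control cells were Jchain-high.

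The named genes of this contrast had 0 UMIs in the control cells on the higher side, so each fold is a lower bound against 3 counts. Evi2a, a membrane protein of leukocytes, was at least 3.49-fold higher in shRNA1, and in shRNA2 the bound was 2.05-fold. Ccl4, a chemokine, was at least 7.22-fold higher in shRNA1, with a bound of 4.02-fold in shRNA2, but 114 of its 118 UMIs in shRNA1 lay in 1 cell and it was found in 3 and 10 cells. Of the others, Zpbp2, Fbxo36, Dnajb13, BC048502, Ssmem1 and Ccdc70 stood at 67.1 to 109 CPM in the Mzb1-high cells of the hairpin libraries, and at 209 to 394 CPM in all cells that were not Mzb1-high. These genes were thus more abundant outside the Mzb1-high cells in every library, and the part of free RNA in them was not tested.

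On the lower side, Lmo2, a transcriptional cofactor of blood cells, stood at 21.4 CPM in shRNA1 and 84.2 CPM in shRNA2, against 286 CPM in shCtrl, and 25 of its 27 control UMIs lay in the deepest control cell. Ptprc stood at 39.0 and 54.5 CPM, against 180 CPM. Ccr7 stood at 44.8 and 59.3 CPM, against 191 CPM, from 9, 1, 8 and 0 UMIs in the 4 control cells. Rpl29, a ribosomal protein gene with processed copies, stood at 44.8 and 41.8 CPM, against 202 CPM. The differences read at most 4 control cells, and no statement on the hairpins was drawn from them.

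The Jchain-high cells of the hairpin libraries, 37 in shRNA1 and 67 in shRNA2, could be compared with each other. Of 5457 genes, 214 (3.92%) were higher by 2-fold or more in shRNA1 and 274 (5.02%) lower by as much, with a median log2 fold of -0.06. The ER lists gave 0 of 21 higher and 0 lower for translocation and 0 higher and 1 lower of 21 for folding. Single genes differed far more than the secretory program did.

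Slpi, a secreted inhibitor of serine proteases, led the difference. It stood at 6212 CPM in Jchain-high cells of shRNA1 and 341 CPM in those of shRNA2, a ratio of 16.4 to 20.3 by counting error. It was found in 30 of 37 cells of shRNA1 with a median of 777 CPM, and in 33 of 67 cells of shRNA2 with a median of 0. The 5 highest cells held 65.6% of its UMIs in shRNA1 and 51.0% in shRNA2. Ly6c2, a surface protein of monocytes and plasma cells with a close copy in Ly6c1, stood at 685 and 67.8 CPM, and was found in 25 and 27 cells. Both genes together were found in 21 of 37 and 17 of 67 cells. Slpi and Ly6c2 were thus present in a range of cells of each library, and higher cells were more frequent in shRNA1.

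A few MHC class I genes were higher in shRNA1, and late spermatid RNA was higher beside them, largely through 1 cell. B2m stood at 8089 CPM in shRNA1 and 3364 CPM in shRNA2, and H2-K1, a heavy chain with close copies, at 2194 and 899 CPM. Of 13 class I genes, 3 were higher and 0 lower, with a median log2 fold of 0.63. Tnp1 stood at 6142 and 2426 CPM, and 4 of 9 late spermatid genes were higher. Without the shRNA1 cell with most Prm1 UMIs, Tnp1 stood at 3130 and 2426 CPM, a log2 of 0.37. Tnp2 then differed by a log2 of 0.65, Prm1 by 0.35, B2m by 1.37 and Slpi by 4.29. Without the 25% of Mzb1-high cells with most spermatid RNA, Tnp1 differed by a log2 of 0.22, B2m by 0.81, which is under the 2-fold line, and Slpi by 3.55, with Slpi at 2222 and 189 CPM. Among cells under 20000 UMIs, Slpi stood at 9635 and 518 CPM and Crip1, a small LIM protein, at 364 and 354 CPM, against 966 and 326 CPM over all Jchain-high cells. The difference in Slpi thus stayed under each restriction, and that in Crip1 was seen with the deeper cells included.

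On the lower side, H2-Eb1, a beta chain of MHC class II, stood at 28.5 CPM in Jchain-high cells of shRNA1 and 504 CPM in those of shRNA2, and was found in 10 of 37 and 64 of 67 cells. H2-Aa and H2-Ab1, which form the other class II molecule of the mouse, stood at 1156 and 1501 CPM and at 2047 and 1519 CPM. H2-Eb1 was low in every group of cells of shRNA1: 176, 1407 and 1509 CPM in Jchain-low cells of shRNA1, shRNA2 and shCtrl, 134, 1848 and 3102 CPM in other leukocytes and 252, 4772 and 5337 CPM in Lyz2-high cells. H2-Aa in the same Lyz2-high cells was 10579, 9752 and 13892 CPM. The unannotated genes AC125149.3 and A530040E14Rik had 6.57 and 138 CPM and 4.38 and 96.4 CPM in Jchain-high cells of shRNA1 and shRNA2. In all cells that were not Mzb1-high, H2-Eb1 stood at 3.25, 50.6 and 22.4 CPM. It was thus lower in shRNA1 in each group of cells given here, and the mice, pooled, are of an outbred background. The cause was not tested.

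Nts, the gene of the peptide neurotensin, was found in 1 of 37 Jchain-high cells of shRNA1 and 14 of 67 of shRNA2, with up to 37 UMIs in a cell. Its level was 2.19 CPM in shRNA1 and 91.9 CPM in shRNA2. Within shRNA2 it stood at 6.42 CPM in Jchain-low cells, in 3 of 49 cells. Cell cycle genes were lower in shRNA1 for 2 of 15, with Ube2c, a mitotic ubiquitin enzyme outside that list, at 61.3 and 244 CPM. The share of Jchain-high cells of at least 20000 UMIs was 6 of 37 in shRNA1 and 18 of 67 in shRNA2. The part of this difference in depth in the cell cycle values was not tested.

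**Figure D5:**
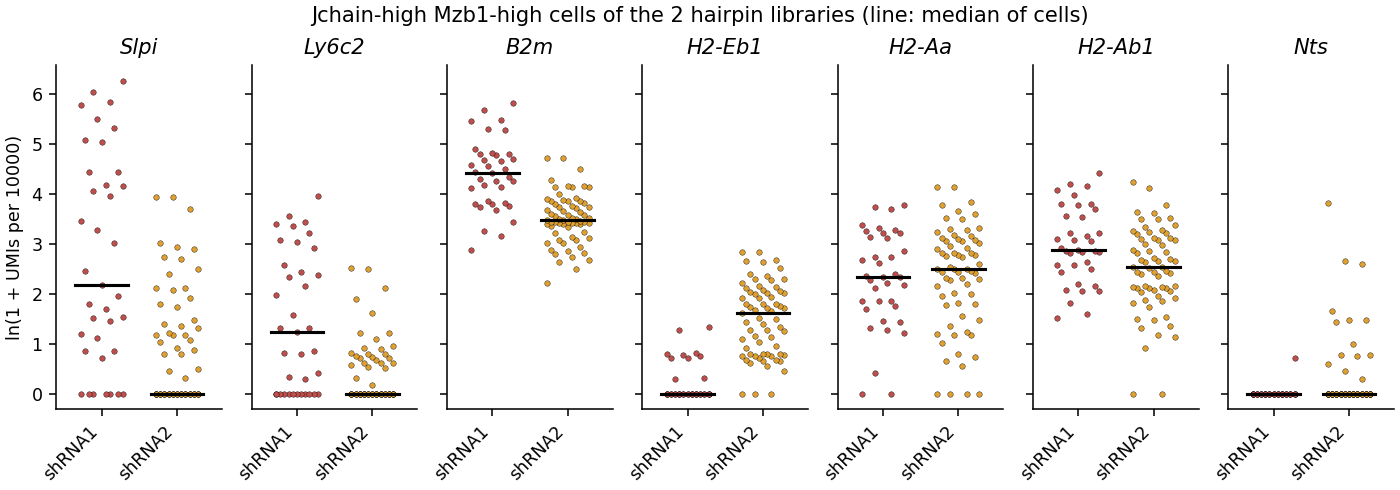
Slpi, Ly6c2, B2m, H2-Eb1, H2-Aa, H2-Ab1 and Nts in each Jchain-high Mzb1-high cell of shRNA1 (left in each panel, 37 cells) and shRNA2 (right, 67 cells), as ln(1 + UMIs per 10000), with a line at the median of the cells. Slpi, Ly6c2 and B2m lie higher in shRNA1, H2-Eb1 is at 0 in most cells of shRNA1 and present in 64 of 67 cells of shRNA2, and H2-Aa and H2-Ab1 overlap.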

How the data were processed

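The deposited table holds natural log (ln) values made by the authors, with each cell scaled to 10000 UMIs and 1 added. The submitters' processing notes name Cell Ranger 1.3.1, Seurat 2.0.0 and mm10. Cell filters, annotation and strand were not given in any source used. Undoing the log gave whole UMIs for 100% of 20140203 non-zero values within 0.01, over 22843 genes and 5023 cells. Knockdown columns were matched to shRNA1 and shRNA2 by their last digit alone; were that wrong, the hairpins would change places.

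No cell was removed and no doublet caller was run, so mixed droplets are possible. UMIs were summed over cells, giving between 94260 and 2055653 UMIs for the Mzb1-high cells of a library, and divided by the sum of the cells. A gene was compared at a mean of at least 10 CPM and 30 UMIs, on CPM plus 1, and counted at 2-fold in every library of the comparison. With 1 library a group there is no test; intervals are exact Poisson or Clopper-Pearson at 95%. The planned antibody class calls were not made. TMM was coded in Python 3.11.15 with numpy 2.4.6, and steps were tested on simulated data.

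Named genes were the first 15 higher and 10 lower against other cells (100 CPM), the first 10 per direction against control cells (100 UMIs), and list members; in the added comparisons, the first 15 or 12 per direction with 100 UMIs. The members and lists were chosen with earlier results of these data known. The Jchain split, the comparison with other leukocytes and that between hairpins were added after the data were seen. Gene positions are from GENCODE vM21. Shares of cells with a UMI were also computed after thinning each cell to 7000 UMIs. Alternatives covered scaling, pseudocount, filter, thresholds, ln means, and leaving out libraries or cells.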

Additional observations from a re-analysis of the deposited data

How the results depend on the processing

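No paired analysis was possible because each group is 1 library with 1 replicate number and no result comes from a test. Against other cells, 2093 genes were higher and 3814 lower with no filter, and 312 and 522 by a difference of mean ln values of at least 0.5. Against control cells, these settings gave 4752 and 1295, and 87 and 62, and a Mzb1 threshold of ln 1.5 gave 275 lower; Jchain-low cells alone gave 573 higher and 189 lower. Leaving out a library gave 1391 to 1530 higher and 2395 to 2604 lower against other cells, and 1607 to 1943 higher and 576 to 1093 lower against control cells. Between hairpins, 422 were lower with a Jchain split at ln 4.5, and 92 were higher among cells under 20000 UMIs and 100 without the 25% of cells with most spermatid RNA, where higher genes made up 29.3% and 27.5% of the calls instead of 43.9%.

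Without those 25%, which took 19, 21 and 0 cells, Mzb1-high cells were 1.27% of shRNA1 and 5.07% of shRNA2, Jchain stood at 24643 and 13080 CPM and Cd79a at 399 and 303 CPM. At ln 2.5 they were 4.54% of shRNA2. Jchain stood at 32630, 16234 and 837 CPM at ln 1.5, and 42755, 24861 and 2732 CPM at ln 2.5, in shRNA1, shRNA2 and shCtrl. As a mean per cell it was 53160, 27378 and 2737 CPM, and Cd79a 789, 539.6 and 859 CPM. Scaled without Jchain and Mzb1, it was 39754 and 19132 CPM in the hairpins. The share of Mzb1 UMIs held, which the choice of cells sets, was 96.3%, 94.6% and 84.1% at ln 1.5 and 93.1%, 85.2% and 60.1% at ln 2.5. That of Jchain in shRNA2 was 88.2% at ln 2.5. The cause of these shifts was not tested beyond the cells or genes each setting leaves out. Of 270 list levels under other settings 158 moved by less than their counting interval, and of 30 thinned shares 21.

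Depth limits the control most: its 4 Mzb1-high cells allow no gene below 3 of 94260 UMIs to be told from 0, and a single library per group gives no spread between mice.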
